A study of Mus musculus with 23 samples.

Results

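Pyramidal neurons of hippocampal field CA1 were followed through the RNA of 6 genes enriched in them, Wfs1, Mpped1, Gpr161, Fibcd1, Pou3f1 and Man1a. The genes were taken by name, as rows of the 2 count tables of the series, and all 6 of 6 were found among the 24985 gene symbols of each table. Each had between 237 and 6225 reads per library, and all passed the filter on low counts in both experiments. The study asks what loss of Acss2, which encodes an enzyme that makes acetyl-CoA from acetate, does to hippocampal transcription at rest and after learning.

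All mice were of strain C57BL6/J. KO mice lacked exons 3 to 7 of both Acss2 copies, a constitutive loss made by deletion in 1-cell embryos. Het mice are labelled as carrying 1 deleted copy, and WT mice carried none. The first experiment held freehand-dissected whole hippocampi of KO, Het and WT mice, all from the home cage, with 2 libraries each in batch B0. The second held 1 mm dorsal hippocampal sections cut with a brain matrix. It comprised 4 KO fear libraries, made from mice killed 30 min after 1 shock in a conditioning context, 5 KO home cage libraries, 3 of WT fear and 5 of WT home cage. Home cage was the only control, so conditioning, handling and exposure to the context cannot be told apart. The labelled dorsal batches cut across the groups. B1 held KO fear 1 and 2, all 3 WT fear libraries and WT home cage 1 and 2. B2 held KO home cage 1 to 3 and WT home cage 3 to 5, and B3 held KO fear 3 and 4 and KO home cage 4 and 5. The labels do not say that replicates were separate animals, so p-values measure the spread between these samples, which may be technical.

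In the trisynaptic circuit, granule cells of the dentate gyrus excite CA3 pyramidal neurons, which excite CA1 neurons through the Schaffer collaterals, and CA1 in turn sends the main output of the hippocampus to the subiculum and cortex. The fields differ in the genes they express, and CA1 itself varies along its dorsal to ventral axis. In whole-tissue RNA a marker's level depends both on how many such cells the sample holds and on how much of the RNA each cell makes, and fewer CA1 cells cannot be told apart from less RNA per cell.

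Depth was 18814460 to 27293661 counts per whole hippocampus library and 5362773 to 23412644 per dorsal library, and B1 was the shallowest batch at 5362773 to 9109104 counts. Levels are given as CPM, which scales each read count by the depth of its library after TMM adjustment. Acss2 matched the labelled genotype in each library, at 3.87 to 7.02 CPM over the KO libraries, 31.2 to 34.3 CPM in Het and 56.2 to 71.3 CPM in WT. In whole hippocampus, genotype went together with sex-linked RNA. Xist, the RNA of the inactive X chromosome, stood at 0.137 to 0.145 CPM in KO libraries, 597 to 644 CPM in Het libraries and 663 to 677 CPM in WT libraries. Genotype and sex therefore cannot be told apart in KO against WT or Het whole hippocampus. Xist was at most 0.251 CPM in every dorsal library.

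All 6 markers had their highest group mean in WT fear libraries and their lowest in WT home cage libraries, out of the 7 groups of both experiments. Levels of different genes can be set against each other only per length, and per kb of exon Mpped1 had group means of 27.1 to 62.6 CPM, Wfs1 30.5 to 54.3 and Fibcd1 20.0 to 41.8. Pou3f1 had 13.7 to 25.6 CPM per kb, Gpr161 5.31 to 16.5 and Man1a 4.66 to 10.2. Because the tables were normalized separately and differ in dissection, no test was made across them. The mean level in WT home cage dorsal libraries was 0.386 to 0.729 of that in WT whole hippocampus, depending on the gene. For KO home cage dorsal libraries against KO whole hippocampus the same ratio was 0.669 to 1.19. WT home cage dorsal hippocampus thus gave low group means for all 6 genes in this series. These means take no account of batch. Within B1 the KO fear mean lay below the WT home cage mean for all 6 genes. The values were 79.0 against 133 CPM for Wfs1 and, at the closest, 127 against 128 CPM for Mpped1.

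**Figure D1:**
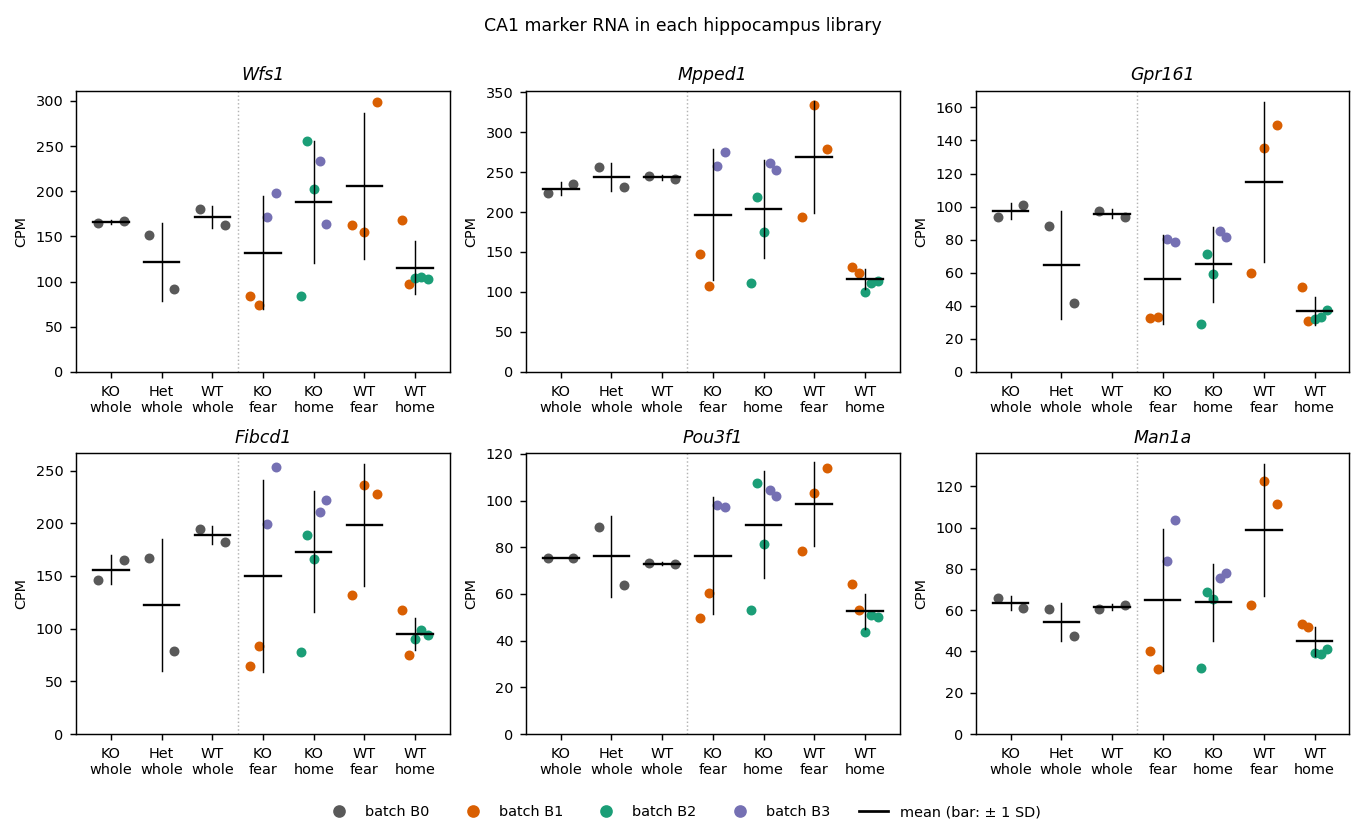
CPM of each CA1 marker (vertical axes, from 0) in each library, with groups along the horizontal axes, whole hippocampus left of the dotted line and dorsal hippocampus right of it. Points are libraries coloured by batch, horizontal lines are group means and vertical lines ± 1 SD. WT home cage libraries mostly sit low, with WT home cage 1 the highest of them for each gene and well apart for Wfs1. KO home cage 1 sits far below the other KO home cage libraries for each gene, and KO fear libraries split by batch.

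Wfs1 and Man1a act in the secretory pathway. Wfs1 encodes wolframin, a membrane glycoprotein of the endoplasmic reticulum whose loss causes Wolfram syndrome in humans, and antibodies to it are used to outline CA1. It lies on chromosome 5 from 36966104 to 36989205 on the minus strand of mm10 (ENSMUSG00000039474.13). Dorsal Wfs1 stood at 83.6, 74.4, 172 and 198 CPM in KO fear libraries, against 83.9, 256, 202, 234 and 164 CPM in KO home cage libraries. WT fear libraries held 163, 155 and 299 CPM, against 168, 97.8, 104, 105 and 103 CPM in WT home cage libraries. WT fear 1 and 2 lay below WT home cage 1, so that these groups overlapped, and Wfs1 was the sole marker for which they did. Its log2 difference of WT fear to WT home cage was 0.88 ± 0.37 (SE, edgeR adjusted p = 0.184), and it did not pass. Whole hippocampus gave 164 and 168 CPM in KO libraries, 152 and 91.3 CPM in the Het libraries, and 180 and 162 CPM in the WT libraries, with Het 2 as the low library.

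Man1a encodes a Golgi mannosidase that trims mannose from N-linked glycans of new glycoproteins. Its gene on chromosome 10, from 53904785 to 54076609 on the minus strand (ENSMUSG00000003746.16), overlaps Gm16998 and Gm47917 on the opposite strand, whose reads cannot be told apart from its own in libraries without strand. Man1a stood at 40.3, 31.7, 83.8 and 104 CPM in KO fear libraries, against 31.9, 68.9, 65.3, 75.4 and 77.9 CPM in KO home cage libraries. WT fear libraries held 62.3, 123 and 111 CPM, against 53.4, 51.8, 39.4, 38.8 and 41.2 CPM in WT home cage libraries. Every WT fear library lay above every WT home cage library, but the difference of 1.16 ± 0.30 missed the threshold over all genes (edgeR adjusted p = 0.0557). Whole hippocampus gave 66.0 and 61.1 CPM in KO libraries, 60.6 and 47.6 CPM in the Het libraries, and 60.5 and 62.7 CPM in the WT libraries.

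Gpr161 and Fibcd1 encode membrane receptors. GPR161 is an orphan receptor of the primary cilium that holds Hedgehog signalling down through cyclic AMP, and FIBCD1 carries a fibrinogen-like domain that binds acetylated sugars such as chitin. Gpr161 occupies 165295789 to 165326745 of chromosome 1, plus strand (ENSMUSG00000040836.15), and Fibcd1 on chromosome 2 from 31813290 to 31846005 on the minus strand (ENSMUSG00000026841.7). The 250 bases before a RefSeq start of each are shown because these genes had the largest log2 differences of the 6 between WT fear and WT home cage. The sequences are from RefSeq on GRCm38.p6, 5′ to 3′ on the strand of the gene, at chr1:165295516-165295765 (plus) for Gpr161 and chr2:31846006-31846255 (minus) for Fibcd1. The RefSeq start of Gpr161 at the end of its window lies upstream of the GENCODE start given above, and RefSeq has a further window for it at chr1:165302373-165302622 (plus), in which none of the motifs below was found. Capitals mark matches to the motifs searched.
Gpr161: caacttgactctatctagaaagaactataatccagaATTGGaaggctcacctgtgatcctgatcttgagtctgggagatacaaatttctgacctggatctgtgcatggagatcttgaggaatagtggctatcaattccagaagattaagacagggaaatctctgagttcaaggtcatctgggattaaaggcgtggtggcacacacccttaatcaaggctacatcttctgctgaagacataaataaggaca
Fibcd1: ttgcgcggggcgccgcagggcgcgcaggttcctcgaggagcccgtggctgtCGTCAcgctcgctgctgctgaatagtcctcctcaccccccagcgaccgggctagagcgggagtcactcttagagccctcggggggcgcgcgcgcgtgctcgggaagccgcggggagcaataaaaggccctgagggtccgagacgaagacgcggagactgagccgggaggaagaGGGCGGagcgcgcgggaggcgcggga
Both strands were searched for the cyclic AMP response element TGACGTCA and the TGACG contained in it, for the octamer ATGCAAAT bound by POU factors, for the GC box (letters GGGCGG), for the CCAAT box and for the TATA box (letters TATAAA). In the printed Gpr161 window the one match was the CCAAT box on the opposite strand, starting at position -214 from the RefSeq start. The Fibcd1 window held TGACG on the opposite strand at -199 and the GC box at -26. Of 32851 RefSeq promoter windows, 33.8% held the CCAAT box, 17.8% TGACG and 32.7% the GC box, so each of these matches is common. TGACGTCA was in 1.55%, ATGCAAAT in 1.6% and the TATA box in 12.4% of the windows. The 2 windows differ in base composition, with 42.4% G and C and 1 CpG for Gpr161, 71.6% and 34 CpG for Fibcd1, and medians of 52.4% and 6 over all windows.

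Gpr161 had the largest log2 difference of the 6 genes in WT fear against WT home cage and in KO against WT after fear. It stood at 32.4, 33.4, 80.5 and 78.3 CPM in KO fear libraries, against 28.9, 71.0, 58.9, 85.1 and 81.4 CPM in KO home cage libraries. WT fear libraries held 59.7, 135 and 149 CPM, against 51.2, 31.0, 32.1, 33.2 and 37.3 CPM in WT home cage libraries. All WT fear libraries lay above all WT home cage libraries, WT fear 1 only narrowly, and Gpr161 rose by 1.66 ± 0.33 on the log2 scale (3.15-fold, edgeR adjusted p = 0.0306). Whole hippocampus held 93.8 and 101 CPM in KO libraries, 88.0 and 41.7 CPM in the Het libraries, and 97.6 and 93.8 CPM in the WT libraries. Het 2 again lay far below the other libraries.

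Fibcd1 stood at 64.5, 83.5, 199 and 254 CPM in KO fear libraries, against 78.0, 189, 166, 210 and 222 CPM in KO home cage libraries. WT fear libraries held 132, 236 and 228 CPM, against 118, 75.0, 90.5, 98.6 and 93.6 CPM in WT home cage libraries. The WT groups did not overlap, and Fibcd1 rose after fear in WT by 1.24 ± 0.30 (2.36-fold, edgeR adjusted p = 0.0494). Whole hippocampus gave 147 and 166 CPM in KO libraries, 167 and 78.4 CPM in the Het libraries, and 195 and 183 CPM in the WT libraries, so that both KO and both Het libraries lay below both WT libraries.

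Pou3f1 encodes a POU-domain transcription factor, also called Oct6 or SCIP, best known for driving the promyelinating stage of Schwann cells. It is a gene of 1 exon at 124656807 to 124660655 of chromosome 4, plus strand (ENSMUSG00000090125.3), with Gm2164 antisense to it. Pou3f1 stood at 49.6, 60.2, 98.2 and 97.1 CPM in KO fear libraries, against 53.2, 107, 81.4, 105 and 102 CPM in KO home cage libraries. WT fear libraries held 78.5, 103 and 114 CPM, against 64.2, 53.2, 43.9, 51.1 and 50.3 CPM in WT home cage libraries. The WT groups did not overlap, and Pou3f1 rose after fear in WT by 0.89 ± 0.22 (1.85-fold, edgeR adjusted p = 0.0494). Whole hippocampus gave 75.2 and 75.4 CPM in KO libraries, 88.5 and 63.9 CPM in the Het libraries, and 73.3 and 72.6 CPM in the WT libraries.

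Mpped1 encodes a predicted metallophosphoesterase and occupies 83779467 to 83858494 of chromosome 15, plus strand (ENSMUSG00000041708.12). It stood at 147, 107, 258 and 275 CPM in KO fear libraries, against 112, 219, 174, 262 and 252 CPM in KO home cage libraries. WT fear libraries held 194, 333 and 279 CPM, against 132, 124, 99.5, 112 and 114 CPM in WT home cage libraries. The WT groups did not overlap, and Mpped1 rose after fear in WT by 1.20 ± 0.23 (2.30-fold, edgeR adjusted p = 0.0263), with the smallest p-value of the 6 genes. Whole hippocampus held 223 and 235 CPM in KO libraries, 256 and 231 CPM in the Het libraries, and 245 and 241 CPM in the WT libraries, and unlike Gpr161 it was not low in Het 2.

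In WT mice, the comparison of fear with home cage asked what differs shortly after conditioning. Of the 6 markers 4 rose, Mpped1, Gpr161, Fibcd1 and Pou3f1, against 0.871% of the 14808 genes tested that were called higher and 1.63% called in either direction. For 5 of 6 the groups did not overlap, against 7.7% of all genes that did not overlap and were higher in WT fear. The median log2 difference of the markers was 1.18, and that of all genes -0.02. Within B1, which holds all 3 WT fear and 2 WT home cage libraries, the differences were 0.64 for Wfs1, 1.09 for Mpped1, 1.50 for Gpr161, 1.06 for Fibcd1, 0.76 for Pou3f1 and 0.93 for Man1a. None of the markers passed there (edgeR adjusted p = 0.111 to 0.395), where 5 genes, 0.0365% of those tested, were called in all and 5 of the 6 markers had an unadjusted p under 0.05. DESeq2, run on all 17 libraries, called 5 of the markers and 6.33% of all genes.

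These calls rested on single libraries. No marker passed without WT fear 2, without WT fear 3, without WT home cage 2 or without KO home cage 4. Without any one of KO fear 1 to 4, KO home cage 5 or WT home cage 3 to 5, 2 of the markers passed. Without KO home cage 1 or 3, without WT fear 1 or without WT home cage 1, 5 passed, and without KO home cage 2, 4 passed. The share of all genes called moved with these counts, at 0.0403% to 0.214% in the fits where no marker passed and 2.69% to 5.56% where 5 did. The log2 differences stayed above 0 in all 17 such fits, from 1.43 to 2.06 for Gpr161 and from 0.51 to 1.38 for Wfs1.

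Other markers moved with the same groups. Itpka, a CA1-enriched kinase gene of inositol trisphosphate signalling, missed the threshold at 0.70 ± 0.18 (edgeR adjusted p = 0.0526). Of 10 CA2 and CA3 markers 3 fell and none rose, with the cell adhesion gene Amigo2 at -1.65 ± 0.25 and Cpne4 at -1.02 ± 0.20 (edgeR adjusted p = 0.00721 and 0.0306). Of 10 dentate gyrus markers and 8 markers shared by pyramidal or excitatory neurons none passed by edgeR or by DESeq2, with medians of 0.16 and 0.07. By edgeR 0 dentate gyrus and 2 excitatory markers had an unadjusted p under 0.05. The summed excitatory markers overlapped between groups, at 8700 to 10471 CPM in WT fear and 9286 to 10909 CPM in WT home cage.

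Markers of white matter and of the ventricle lining were lower in WT fear libraries. Of 10 oligodendrocyte markers 8 fell, with Aspa at -1.57 ± 0.33 and Mog at -1.42 ± 0.30 (edgeR adjusted p = 0.0330 and 0.0339), and their summed level was 3820 to 5180 CPM in WT fear libraries, against 6658 to 13323 CPM in WT home cage libraries. Of 6 ependymal markers 3 fell, with summed levels of 6.82 to 8.47 CPM in WT fear libraries, against 30.6 to 87.7 CPM in WT home cage libraries. Of these 6, at most 3 stood at 0 reads in a single WT fear library. Of 8 thalamic markers 1 fell, the kinase gene Prkcd, at -1.63 ± 0.34 (edgeR adjusted p = 0.0330). The thalamic list was mixed, as Slc17a6 at 1.08 ± 0.59 and Ntng1 at 0.44 ± 0.14 lay above 0 (edgeR adjusted p = 0.294 and 0.108). By edgeR 5 of the 8 had an unadjusted p under 0.05. DESeq2 called 3 lower and 1 higher, against 6.33% of all genes. The part of these differences in tissue content in the CA1 marker result was not tested.

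WT fear 2 differed in a further way. The 5 ventral hippocampus markers summed to 205 CPM there, against 42.1 to 105 CPM in every other dorsal library and 149 to 227 CPM in whole hippocampus. Dcn, which encodes the matrix proteoglycan decorin, was at 45.6 CPM in WT fear 2, while WT fear 1 and 3 had 3.58 and 5.56 CPM and WT home cage libraries 3.26 to 16.8 CPM. Trhr, the receptor gene for thyrotropin-releasing hormone, was at 8.44 CPM in WT fear 2, while WT home cage libraries had 0.502 to 1.24 CPM. The ratio of Wfs1 to Gpr161 was 1.15 in WT fear 2, the lowest of the 23 libraries, against 2.77 to 3.27 in WT home cage libraries. None of the 5 ventral markers passed edgeR for the whole group, with a median of 0.99, while DESeq2 called 1 higher and edgeR gave 4 an unadjusted p under 0.05. Without WT fear 2 the CA1 marker differences were 0.86 for Pou3f1 to 1.53 for Gpr161, and none passed (edgeR adjusted p = 0.136 to 0.244).

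**Figure D2:**
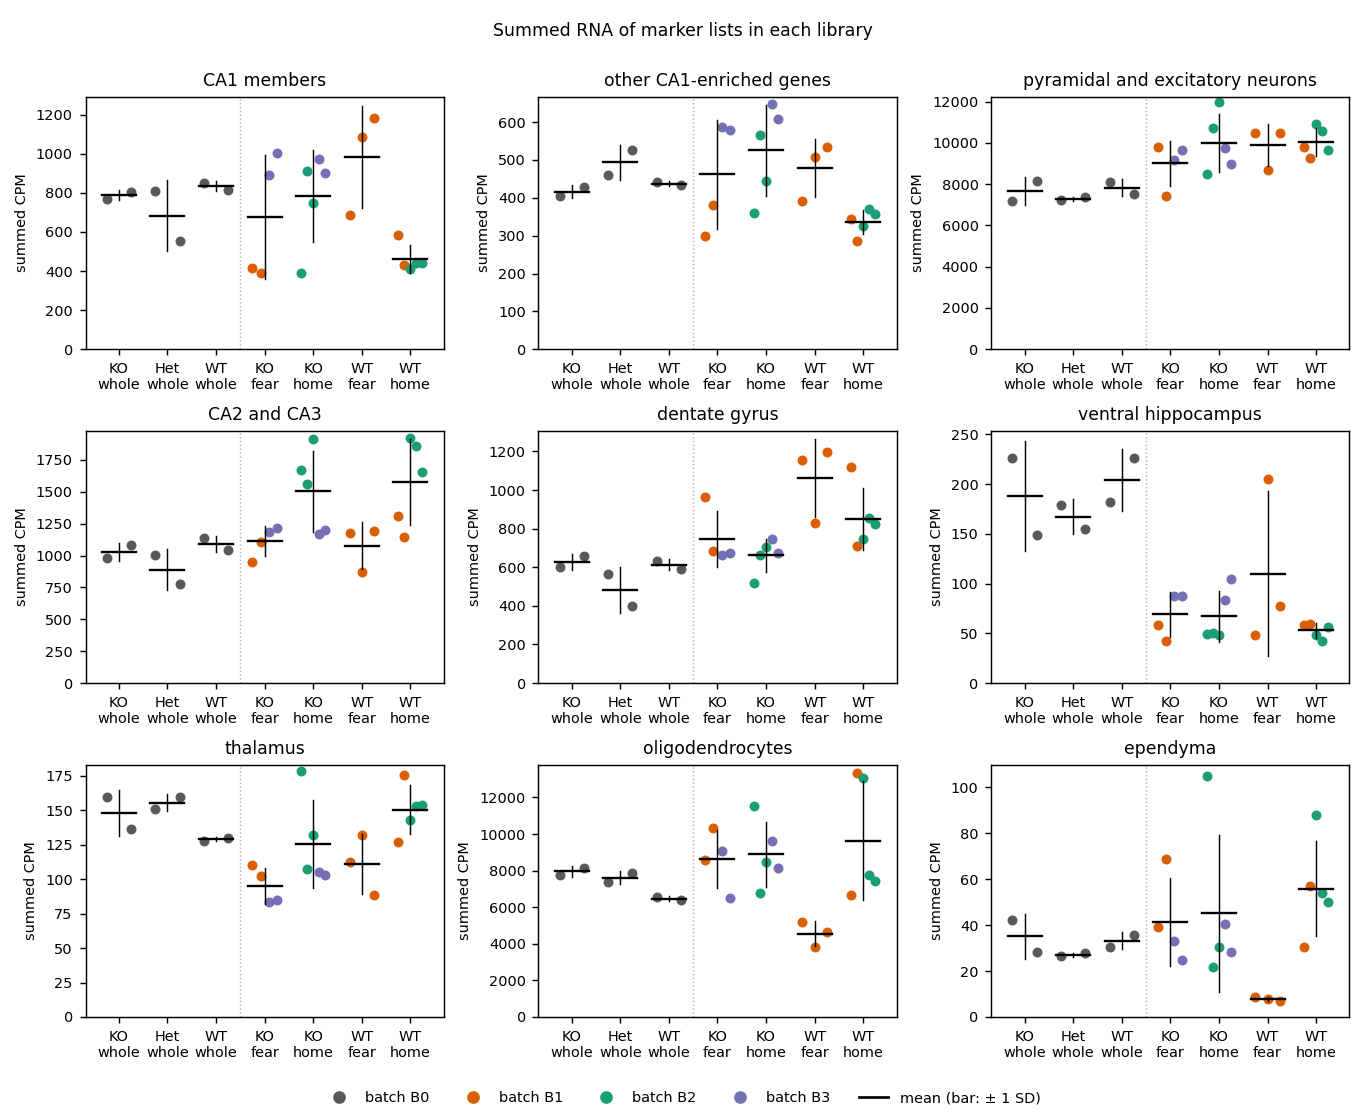
Summed CPM of the CA1 markers and of 8 other marker lists (vertical axes, from 0) in each library, with groups along the horizontal axes, points coloured by batch, lines at the mean and bars of ± 1 SD. WT fear libraries had CA1 sums of 689 to 1181 CPM, above the 409 to 586 CPM of WT home cage libraries. The lowest of them, WT fear 1, lay below KO home cage 2 to 5. WT fear libraries had low oligodendrocyte and ependymal sums, and 1 of them had a ventral sum of 205 CPM.

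The pathways that the markers act in were read from lists in the same comparison. Of 10 genes of N-glycan trimming, the pathway of Man1a, none was called by edgeR and the median was 0.20, with the Golgi mannosidase gene Man2a1 at 0.71 ± 0.21. Before adjustment 3 of those 10 genes had a p below 0.05, and 1 was called higher with DESeq2. Of 12 genes of endoplasmic reticulum stress, the process wolframin bears on, and 10 of the Hedgehog pathway, where GPR161 acts, edgeR called none, with medians of 0.08 and 0.19. The unadjusted p was under 0.05 for 1 of the 12 and 2 of the 10, and DESeq2 called 0 of the 12 and 1 of the 10, lower. Of 6 paralogues of the markers edgeR called 0, with Pou3f3 at 0.46 ± 0.12 and Pou3f2 at 0.54 ± 0.19, DESeq2 called 1 higher, and 3 had an edgeR p under 0.05 before adjustment.

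KO fear against KO home cage gave no such difference. None of the 6 markers passed, against 0.0% of all genes called, and the log2 differences were -0.63 ± 0.35 for Wfs1, -0.20 ± 0.21 for Mpped1 and -0.38 ± 0.30 for Gpr161. Fibcd1 stood at -0.32 ± 0.28, Pou3f1 at -0.35 ± 0.20 and Man1a at -0.17 ± 0.28 (edgeR adjusted p = 0.968 to 0.976 for the 6). DESeq2 called 0, and the unadjusted p was under 0.05 for 0 markers by edgeR. The groups overlapped for all 6 markers. Non-overlapping groups were found for 4.3% of all genes. KO fear 1 and 2, of B1, were low and KO fear 3 and 4, of B3, high. Within B3, the one batch with both groups, the differences were -0.11 ± 0.16 for Wfs1, 0.04 ± 0.08 for Mpped1, -0.08 ± 0.09 for Gpr161, 0.06 ± 0.12 for Fibcd1, -0.09 ± 0.09 for Pou3f1 and 0.28 ± 0.11 for Man1a, and none passed.

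KO against WT in the home cage asked what the deletion does at rest in dorsal tissue. None of the 6 markers passed, against 0.00675% of all genes called, and the log2 differences were 0.44 ± 0.31 for Wfs1, 0.46 ± 0.19 for Mpped1, 0.42 ± 0.27 for Gpr161, 0.36 ± 0.25 for Fibcd1, 0.55 ± 0.18 for Pou3f1 and 0.16 ± 0.25 for Man1a (edgeR adjusted p = 0.440 to 0.790). DESeq2 called 0 of them, and by edgeR 2 had an unadjusted p under 0.05. All 6 overlapped between groups, through KO home cage 1 and, for Wfs1, also through WT home cage 1, and 3.09% of all genes did not overlap. KO home cage 1 had a summed marker level of 388 CPM, the lowest of the 23 libraries, against 748 to 971 CPM in KO home cage 2 to 5 and 409 to 586 CPM in WT home cage libraries. The same library had an ependymal sum of 105 CPM, above the 21.7 to 87.7 CPM of the other home cage libraries. Without it the marker differences were larger, up to 0.69 for Pou3f1, and without KO home cage 2 they were smaller, at 0.14 for Wfs1, 0.27 for Mpped1, 0.19 for Gpr161, 0.14 for Fibcd1, 0.33 for Pou3f1 and -0.03 for Man1a. None passed in either fit. Within B2 they were 0.48 to 0.80, and none passed (edgeR adjusted p = 0.817).

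KO against WT after fear asked how the genotypes differ once mice had been conditioned. Of the 6 markers 5 fell in KO, against 12.1% of all genes called lower and 22.3% called in either direction. The log2 differences were -1.62 ± 0.35 for Gpr161, -1.20 ± 0.32 for Fibcd1, -1.17 ± 0.32 for Man1a, -0.94 ± 0.24 for Mpped1 and -0.69 ± 0.23 for Pou3f1 (edgeR adjusted p = 0.0155, 0.0210, 0.0221, 0.0182 and 0.0404). Wfs1, at -1.07 ± 0.40, did not pass (edgeR adjusted p = 0.0611). The median was -1.12, against 0.01 for all genes. All 6 markers nevertheless overlapped between the unadjusted groups, since KO fear 3 and 4 of B3 stood within or near the range of the WT fear libraries, and 21.4% of all genes did not overlap.

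B1 is the one batch that holds both groups. Within it, with 2 KO fear and 3 WT fear libraries, all 6 markers fell, with log2 differences of -1.37 for Wfs1, -1.07 for Mpped1, -1.80 for Gpr161, -1.41 for Fibcd1, -0.83 for Pou3f1 and -1.45 for Man1a (edgeR adjusted p = 0.00798 to 0.0145), where 17.3% of all genes were called. With no batch term 0 of 6 passed by edgeR, against 10.4% of all genes, and the differences were smaller, at -0.63 for Wfs1, -0.45 for Mpped1, -1.02 for Gpr161, -0.40 for Fibcd1, -0.36 for Pou3f1 and -0.60 for Man1a. No marker passed without KO fear 2, without WT fear 2 or without WT fear 3, fits in which 0.00661% to 0.0132% of all genes were called, and without KO fear 1, 2 passed. The differences stayed below 0 in all 17 fits with a library left out, from -1.94 to -1.39 for Gpr161 and from -0.85 to -0.50 for Pou3f1.

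**Figure D3:**
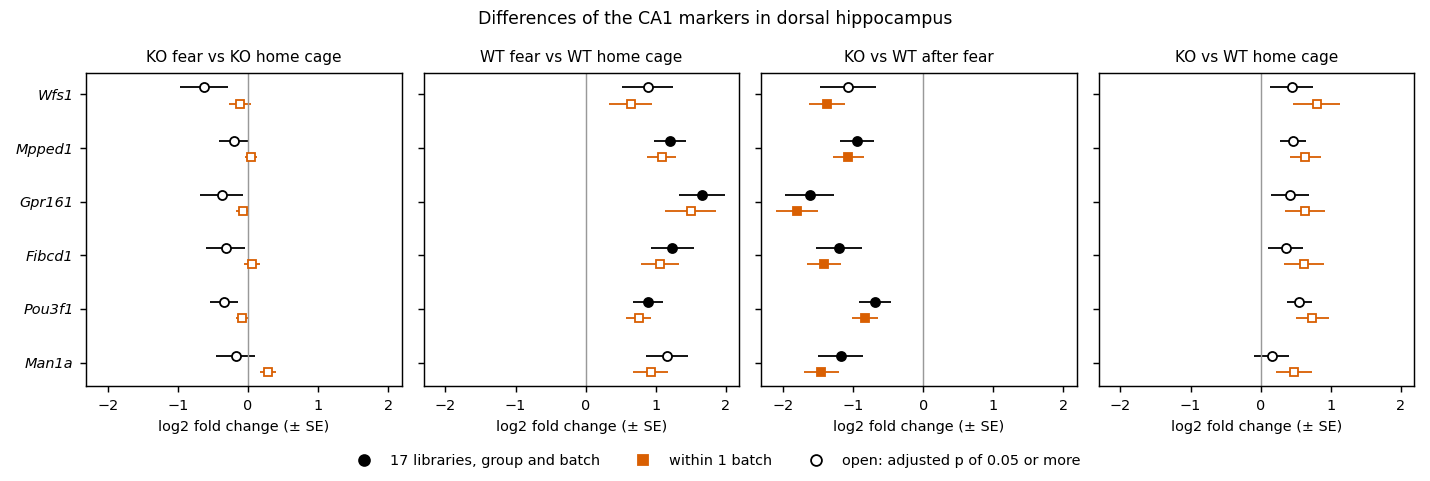
Log2 fold changes ± SE (horizontal axes) of the 6 CA1 markers in 4 dorsal comparisons, from the 17-library fit with group and batch (black circles) and from the 1 batch that holds both groups (orange squares). Filled symbols have an edgeR adjusted p under 0.05. The WT fear differences lie right of 0 and the KO against WT differences after fear lie left of it, with the KO fear differences close to 0 within their batch.

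The same lists were read in this comparison, which shares its WT fear libraries with the one above. Spink8, a CA1-enriched protease inhibitor gene, rose by 0.86 ± 0.28 (edgeR adjusted p = 0.0391). Of 10 CA2 and CA3 markers 4 rose and 1 fell, with Amigo2 higher by 1.23 ± 0.25 and Nptx1 at -0.74 ± 0.19 (edgeR adjusted p = 0.0155 and 0.0180). Of 10 oligodendrocyte markers 8 rose, led by the myelin basic protein gene Mbp at 1.12 ± 0.26, and all 6 ependymal markers rose, with a median of 3.87. Of 6 choroid plexus markers 5 rose, with a median of 2.27. Summed oligodendrocyte markers were 6529 to 10325 CPM in KO fear and 3820 to 5180 CPM in WT fear libraries. Some other neuron markers fell as well, where 12.1% of all genes were called lower and 22.3% in either direction. Of 10 dentate gyrus markers 2 fell and none rose, with a median of -0.40. Of 8 markers shared by pyramidal or excitatory neurons 3 fell and 1 rose, with a median of -0.25. Of 5 ventral markers 3 fell, with Dcn at -2.60 ± 0.81 and Trhr at -2.13 ± 0.66 (edgeR adjusted p = 0.0331 and 0.0334), the genes that stood high in WT fear 2. The part of these differences in the marker result was not tested.

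Of the pathways of the markers, N-glycan trimming had 3 of 10 genes lower and none higher, with a median of -0.31. Man2a1 fell by 0.97 ± 0.22 and Man1c1, a paralogue of Man1a, fell by 0.80 ± 0.19 (edgeR adjusted p = 0.0155 and 0.0162). In the Hedgehog pathway 1 of 10 fell, Sufu, a brake on the GLI factors, at -0.52 ± 0.18, and of the endoplasmic reticulum stress genes 1 of 12 rose, the chaperone gene Hsp90b1, by 0.47 ± 0.16 (edgeR adjusted p = 0.0468 and 0.0479). Of all genes 22.3% were called.

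The interaction asked whether the fear difference itself differed between genotypes, as KO fear minus KO home cage less WT fear minus WT home cage. Of the 6 markers 3 were lower, Gpr161 at -2.04 ± 0.38, Mpped1 at -1.40 ± 0.27 and Pou3f1 at -1.24 ± 0.25 (edgeR adjusted p = 0.0406, 0.0406 and 0.0447), against 0.284% of all genes called lower and 0.479% in either direction. Fibcd1 at -1.56 ± 0.36, Man1a at -1.33 ± 0.35 and Wfs1 at -1.52 ± 0.44 did not pass (edgeR adjusted p = 0.0528, 0.0710 and 0.0882). All 6 values were negative, with a median of -1.46 against 0.03 for all genes. This comparison shares its libraries with those above and adds no independent samples. No batch holds all 4 groups, so it cannot be had within a batch, and with no batch term 0 of 6 passed. All 6 passed without KO home cage 1, without WT fear 1 or without WT home cage 1, 3 passed without KO home cage 3, and none passed in the other 13 fits with a library left out. Of all genes 4.45% to 6.66% were called in the fits where all 6 passed, and at most 0.0339% where none did. Other lists moved in the interaction as well. By edgeR 10 of 10 oligodendrocyte, 6 of 6 ependymal and 8 of 10 CA2 and CA3 markers had an unadjusted p under 0.05. DESeq2 called 7, 6 and 3 of these lists higher and 0 lower, and the 6 CA1 markers lower. Amigo2 was at 1.49 ± 0.28 (edgeR adjusted p = 0.0406). The part of these differences in the marker result was not tested.

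**Figure D4:**
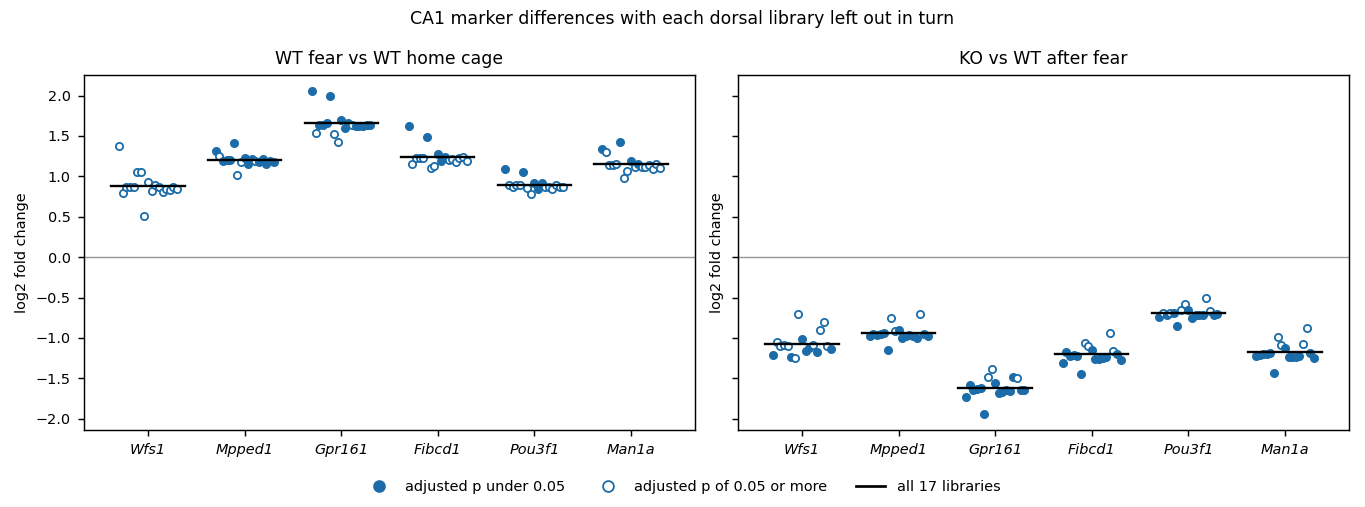
Log2 fold change (vertical axis) of each CA1 marker when each of the 17 dorsal libraries was left out in turn, for WT fear against WT home cage (left) and KO against WT after fear (right). Filled points had an edgeR adjusted p under 0.05 and black lines give the value from all libraries. The signs did not change, while calls were lost in several of the fits.

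Whole hippocampus gave no called difference in the markers. In KO against WT 0 of 6 passed, against 0.0388% of all genes called, with differences from -0.27 ± 0.30 for Fibcd1 to 0.05 ± 0.14 for Pou3f1 (edgeR adjusted p = 0.877 to 0.995). With 2 libraries a group, the groups did not overlap for 3 of 6 markers, against 42.1% of all genes. KO against Het also gave 0 of 6, against 0.0841% called, and Het against WT 0 of 6, against 0.0%. In each of these 3 comparisons DESeq2 called 0, and 0 markers had an unadjusted p below 0.05 by edgeR.

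The Het libraries differed from each other. Het 2 held 91.3 CPM of Wfs1, 41.7 of Gpr161 and 78.4 of Fibcd1, against 152, 88.0 and 167 CPM in Het 1, while Mpped1 stood at 231 and 256 CPM in Het 2 and Het 1. Het against WT gave -0.50 ± 0.21 for Wfs1, -0.57 ± 0.30 for Gpr161 and -0.63 ± 0.31 for Fibcd1 (edgeR adjusted p = 0.365 to 0.433). For these 3 genes both Het libraries lay below both WT libraries, against 22.9% of all genes that did not overlap and were lower, and in KO against Het 3, Wfs1, Gpr161 and Man1a, did not overlap and were higher, against 20.0%. Without Het 1, 4 markers fell in Het against WT, Wfs1, Gpr161, Fibcd1 and Man1a, at -0.91, -1.20, -1.27 and -0.37, against 9.0% of all genes called. In the same fit 5 were higher in KO against Het, against 7.66% of all genes. Without Het 2 the Het against WT differences were -0.18 for Wfs1, -0.12 for Gpr161, -0.18 for Fibcd1 and -0.03 for Man1a, and no marker passed. The fit without Het 1 assumes that the lone Het 2 library varies as the other groups do. Het 2 also held a summed 461 CPM of 9 subiculum and neocortex markers, against 303 to 330 CPM in the other whole hippocampus libraries. The part of this content in the Het values was not tested.

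The markers varied together among the 17 dorsal libraries. Over the 15 pairs of markers, Pearson's r of log2 CPM was 0.785 to 0.949 and Spearman's rho 0.713 to 0.961. Permutation p-values, with Benjamini-Hochberg adjustment over the 15 pairs, were 1.36e-05 to 0.00044 for r and 2.5e-05 to 0.00211 for rho, from 100000 permutations, whose smallest possible p is 1e-05. Wfs1 with Mpped1 was the loosest pair. Without the 2 libraries farthest from the median r was 0.775 to 0.965, and in residuals from group and batch 0.702 to 0.942. Within B1 (7 libraries) r was 0.718 to 0.984 and within B2 (6 libraries) 0.894 to 0.997, and B3, with 4 libraries, holds too few for a correlation. These libraries share their groups, batches and dissections, so neither the pairs nor the libraries are independent. The permutation p-values may reflect what the libraries share.

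Genes outside the list were ranked by their likeness to the mean standardised log2 CPM of the 6 markers. The 8 most alike over 17 libraries were Galntl6 (r = 0.965), Chrna5 (0.957), Stac (0.954), Alox12b (0.948), Bhlhe40 (0.945), BC030500 (0.945), Ankrd63 (0.938) and Mylip (0.931). Galntl6, named for a polypeptide N-acetylgalactosaminyltransferase-like protein, held 14.2 to 34.1 CPM in KO fear, 15.9 to 30.3 CPM in KO home cage, 25.2 to 40.2 CPM in WT fear and 16.2 to 23.5 CPM in WT home cage libraries. Bhlhe40, which encodes a basic helix-loop-helix repressor, held 78.3 to 155 CPM in WT fear and 49.6 to 62.8 CPM in WT home cage libraries. Its ranges in KO fear, 54.3 to 103 CPM, and in KO home cage, 57.6 to 119 CPM, overlapped those of both WT groups. After removal of group and batch the most alike included Tmem200a (r = 0.945), Ppp4r4 (0.932), Sorcs3 (0.930), Trpc4 (0.929), Galntl6 (0.920), Elmod1 (0.918) and Zfp319 (0.911). Galntl6 alone stood in both rankings. The markers' own r to their mean was 0.905 for Wfs1, the least typical, to 0.976 for Gpr161.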

How the data were processed

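The 23 libraries measure polyadenylated RNA. The authors deposited raw counts for 24985 gene symbols per experiment. Per the submitters' processing notes, their tools and build were STAR, SAMtools 1.1, HTSeq 0.9.1, DESeq2, limma and mm10, and no source used here states the annotation. Per the labels' protocols, the kit was NEBNext Ultra II, which does not mark strand.

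R 4.3.3 and edgeR 4.0.16 were used (TMM, filterByExpr at 10 counts per library and 15 in total, quasi-likelihood F test), with 15453 whole and 14808 dorsal genes left. Whole hippocampus was fitted on genotype, with 3 residual degrees of freedom, and dorsal hippocampus on group and batch, with 11. The two-sided p-values were adjusted by Benjamini-Hochberg across every gene tested, and a call needed under 0.05. SE is the absolute log2 fold change over the square root of F. Per-kb levels and 1-based coordinates came from GENCODE M21 exons. The script was tested on simulated counts.

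The 6 markers and the other lists were chosen with earlier results of these data known. Named list genes are up to 2 with the smallest p per list and comparison. Some genes that this rule names are not reported here. Xist, and Dcn and Trhr in single libraries, were chosen after their values were seen. Likeness was r of log2(CPM + 0.5). Libraries of 1 group differed beyond sampling noise (chi-square per gene 6.097 to 62.06), and each counted as 1 replicate. Alternatives were DESeq2 1.42.0, RLE size factors, no filter, no batch term, 1 batch only, 2 groups only, a replicate block and leaving out each library.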

Additional observations from a re-analysis of the deposited data

Results flagged for a closer look

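Of 18 sets of 4 or 5 dorsal libraries, 1 for each marker and group, 2 held a library far from the others. Chance flags about 1 in 20, but the markers share their libraries and vary together, so the sets are not independent tries. Wfs1 in WT home cage 1 stood at 167.69 CPM, while the other 4 WT home cage libraries held 97.8 to 105 CPM. Man1a in KO home cage 1 stood at 31.861 CPM, while KO home cage 2 to 5 held 65.3 to 77.9 CPM.

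The fear difference differed between KO and WT by the interaction test for 3 markers. On the log2 scale KO minus WT was -1.40 for Mpped1, -2.04 for Gpr161 and -1.24 for Pou3f1, with edgeR adjusted p = 0.0406, 0.0406 and 0.0447.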

How the results depend on the processing

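Outside the fits with a library left out, 220 of the markers' log2 fold changes kept their direction and side of the threshold under an alternative, 25 no longer passed, 12 newly passed and 7 changed sign. In the fits with a library left out these counts were 489, 91, 28 and 10. The markers called under each changed setting were 0 within batch for WT fear against WT home cage, 0 with no batch term for KO against WT after fear and for the interaction, and 6 each with DESeq2 and with no filter for the interaction, where 6.13% and 2.02% of all genes were called. The cause was not tested. Leaving out each library gave 0 to 5 called markers for WT fear against WT home cage, 0 to 6 for KO against WT after fear, 0 to 6 for the interaction, 0 to 4 for Het against WT and 0 to 5 for KO against Het.

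Replicate numbers were not taken as pairs in the main fits. Of 22 same-numbered dorsal pairs 3 had a correlation of deviations over 0.1 (range -0.506 to 0.288), and of 6 whole hippocampus pairs 2 did (-0.678 to 0.389). Pairs with unlike numbers were not set beside these. With 2 libraries a group, both numbers give the same whole hippocampus values. The check therefore cannot exclude a pairing. With a replicate block 0 markers were called for WT fear against WT home cage, for KO against WT after fear and for the interaction.

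Signs changed for these values. Mpped1 in Het against WT was 0.00093 and became -0.0016 with DESeq2, -0.0013 with RLE and -0.0046 with 2 groups only. KO fear against KO home cage was -0.20 for Mpped1, -0.32 for Fibcd1 and -0.17 for Man1a, and became 0.042 for Man1a with no batch term and, within batch, 0.042 for Mpped1, 0.056 for Fibcd1 and 0.28 for Man1a. With a library left out, KO against WT whole hippocampus ran from -0.118 to 0.0220 for Wfs1, -0.0286 to 0.0765 for Gpr161 and -0.0106 to 0.0992 for Man1a. Het against WT ran from -0.0744 to 0.0699 for Mpped1 and -0.19 to 0.28 for Pou3f1. KO against Het ran from -0.23 to 0.24 for Pou3f1 and -0.10 to 0.99 for Fibcd1, and KO against WT home cage from -0.0285 to 0.313 for Man1a. Of 42 group means 41 moved by less than 1 SD under RLE and under library totals each. All markers had at least 237 reads per library, so replicate spread rather than counting error limits them.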
